A study of Homo sapiens with 6 samples.

Results

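The interferon-stimulated effector genes are 53 genes that type I and type II interferons are known to induce, and they were followed here in CAL-27 cells after knockdown of XBP-1s. They were chosen by name, with earlier results of these data known. Their probes were found by matching the RefSeq accession of each probe to the gene symbol. Of the 53 genes, 52 had a matched probe and 51 could be tested, among 16821 tested genes in all. IFI27 had no matched probe, and the probe of RSAD2 (viperin, an antiviral radical enzyme) was not well above background on any array. The 51 genes carried 66 tested probes, and a gene is described by its brightest tested probe unless its other probes are named.

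The CAL-27 line was established from a tongue squamous cell carcinoma and grows as an epithelial culture. RNA of 3 samples with an shRNA against XBP-1s, the spliced and transcriptionally active form of XBP1 in the unfolded protein response (shXBP-1s), and of 3 samples with a control shRNA (shCtrl) was hybridised to 1-colour Agilent arrays, 1 sample per array. The methods describe stable transduction, the labels call it transfection, and neither names an interferon treatment or how many shRNA sequences or cell clones were used. Nothing says that the 3 samples of a group came from separate cultures, so the p-values measure the spread between these samples, which may be technical.

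Interferons bind receptors on the cell surface and activate the kinases JAK1, TYK2 and JAK2, which phosphorylate transcription factors. A complex that holds STAT2 and IRF9 binds the interferon-stimulated response element (ISRE), and the gamma-activated site (GAS) is the element of the type II response. The induced proteins block viral entry, sense or degrade foreign RNA, halt translation, modify other proteins with ISG15, or feed back on the pathway, and many tumour lines keep a part of them switched on without added interferon.

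The promoters were searched for the ISRE core, GAAANNGAAA, on both strands of the window from 250 bases before to 50 bases after each start in the RefSeq annotation of GRCh38.p14. This core was present in 3.57% of 35116 promoters and in at least 1 promoter of 4.38% of 27305 genes. Of the 53 members, 44 were in the promoter table, and 33 of these 44 (75%) held it. The windows below are the reference sequence around 1 match each, written 5′ to 3′ on the strand of the gene, with the match in capitals (TTTCNNTTTC is the same core read on the opposite strand).

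The first 4 windows belong to genes that were lower by at least 2-fold in shXBP-1s and are shown for the called members. OASL and TRIM22, also called, are not in the promoter table.
IFIT1 (chr10:89392500-89392549, gene on the plus strand): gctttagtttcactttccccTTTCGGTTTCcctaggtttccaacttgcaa
DDX60 (chr4:168318776-168318825, gene on the minus strand): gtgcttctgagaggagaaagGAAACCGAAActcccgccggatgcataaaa
IFITM1 (chr11:314014-314063, gene on the plus strand): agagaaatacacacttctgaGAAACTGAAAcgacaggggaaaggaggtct
HERC5 (chr4:88457025-88457074, gene on the plus strand): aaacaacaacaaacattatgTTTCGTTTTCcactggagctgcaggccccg

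The next 5 windows belong to genes with the same core whose signal was higher in shXBP-1s by less than 2-fold (DDX60L, SAMD9) or did not pass the test (MX1, EIF2AK2, BST2).
DDX60L (chr4:168480513-168480562, gene on the minus strand): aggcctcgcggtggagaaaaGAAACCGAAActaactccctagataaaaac
SAMD9 (chr7:93118086-93118135, gene on the minus strand): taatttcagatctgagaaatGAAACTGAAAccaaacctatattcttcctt
MX1 (chr21:41420549-41420598, gene on the plus strand): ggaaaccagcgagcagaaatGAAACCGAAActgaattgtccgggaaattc
EIF2AK2 (chr2:37156957-37157006, gene on the minus strand): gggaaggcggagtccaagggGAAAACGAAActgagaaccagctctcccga
BST2 (chr19:17405731-17405780, gene on the minus strand): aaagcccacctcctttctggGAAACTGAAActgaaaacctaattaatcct

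The last 2 windows are 1 stretch of chromosome 3 read on its opposite strands, between the divergently transcribed partners PARP9 and DTX3L.
PARP9 (chr3:122564312-122564361, gene on the minus strand): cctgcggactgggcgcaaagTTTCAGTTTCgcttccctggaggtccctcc
DTX3L (chr3:122564312-122564361, gene on the plus strand): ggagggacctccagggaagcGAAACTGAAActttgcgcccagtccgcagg

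The core was therefore found on both sides of the comparison. Of the 31 tested members that held it, 14 had fallen and 4 had risen in shXBP-1s (limma adjusted p below 0.05). Of the 11 tested members in the table without it, 5 were lower and 2 higher. Over all tested genes, 27.5% were lower and 18.9% higher at that threshold. With a 2-fold minimum added, 4 members with the core and 0 without it were called lower, against 2.88% of all tested genes. The median log2 fold change was -0.19 with the core and -0.13 without it. Members outside the promoter table are left out of these counts and medians. Of them, OASL (-1.54), TRIM22 (-1.53), IFIT2 (-0.94), LY6E (-0.84), IFITM2 (-0.53), USP18 (-0.45) and GBP2 (-0.41) were lower at an adjusted p below 0.05. OAS2 (0.22) was higher at that threshold, and MX2 (-0.06) did not pass. TTCNNNGAA, the letters of a GAS, was in 12 of the 44 members (27.3%) against 9.38% of all genes, and in 5 members a match overlapped the ISRE core. TGACGTGG, the XBP1-binding core, was in 1 of the 44 (SP110) against 0.927% of all genes. A match is a description of the letters and not a measured binding site, and a missing match says only that the letters are not in this window.

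On the arrays, signal is given on a log2 scale on which 0 is the 75th percentile of the array, and each unit is a factor of 2 (the minimum fold change used below). XBP1 itself fell from a mean of 1.87 in shCtrl to -0.52 in shXBP-1s (log2 fold change -2.39, SE 0.041). Of the spots, between 82.08% and 84.81% were well above background, and no spot was saturated. All 51 tested members were well above background on all 6 arrays, and 39 of them (76.5%) were brighter than the median tested gene.

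Of the members, 6 were called lower in shXBP-1s and 0 higher. A call required a limma p below 0.05 after Benjamini-Hochberg adjustment over all tested probes, together with a change of at least 2-fold. The 6 called members are 11.8% of the 51, against a background of 2.88% of all tested genes called lower and 2.3% called higher. Without the minimum fold, 26 members (51%) were lower and 7 (13.7%) were higher, against 27.5% and 18.9% of all tested genes. The share of lower members stood above the background and that of higher members below it. As the members were chosen with earlier results known, this is a description and the set was not tested. At an unadjusted p below 0.05 from limma, 27 were lower and 9 higher, against 31.3% and 22.7% of all tested genes. Every shXBP-1s array lay below every shCtrl array for 26 members (IFI6 by no visible gap), against 32.2% of all tested genes, and above it for 9 members, against 24.3%. Over probes, 7 of 66 (10.6%) were called lower against 2.61% of all tested probes, and 0 were called higher against 2.29%. The median log2 fold change of the members was -0.20, against -0.04 over all tested genes, and the members ran from -1.61 to 0.64. Normexp background correction, which moved the median of all tested genes to -0.29, gave a median of -0.30 for the members, 17 lower and 2 higher, against 11.5% and 9.27% of all tested genes in that setting. When quantile normalization followed normexp, the medians were -0.15 for the members and -0.01 for all tested genes.

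**Figure D1:**
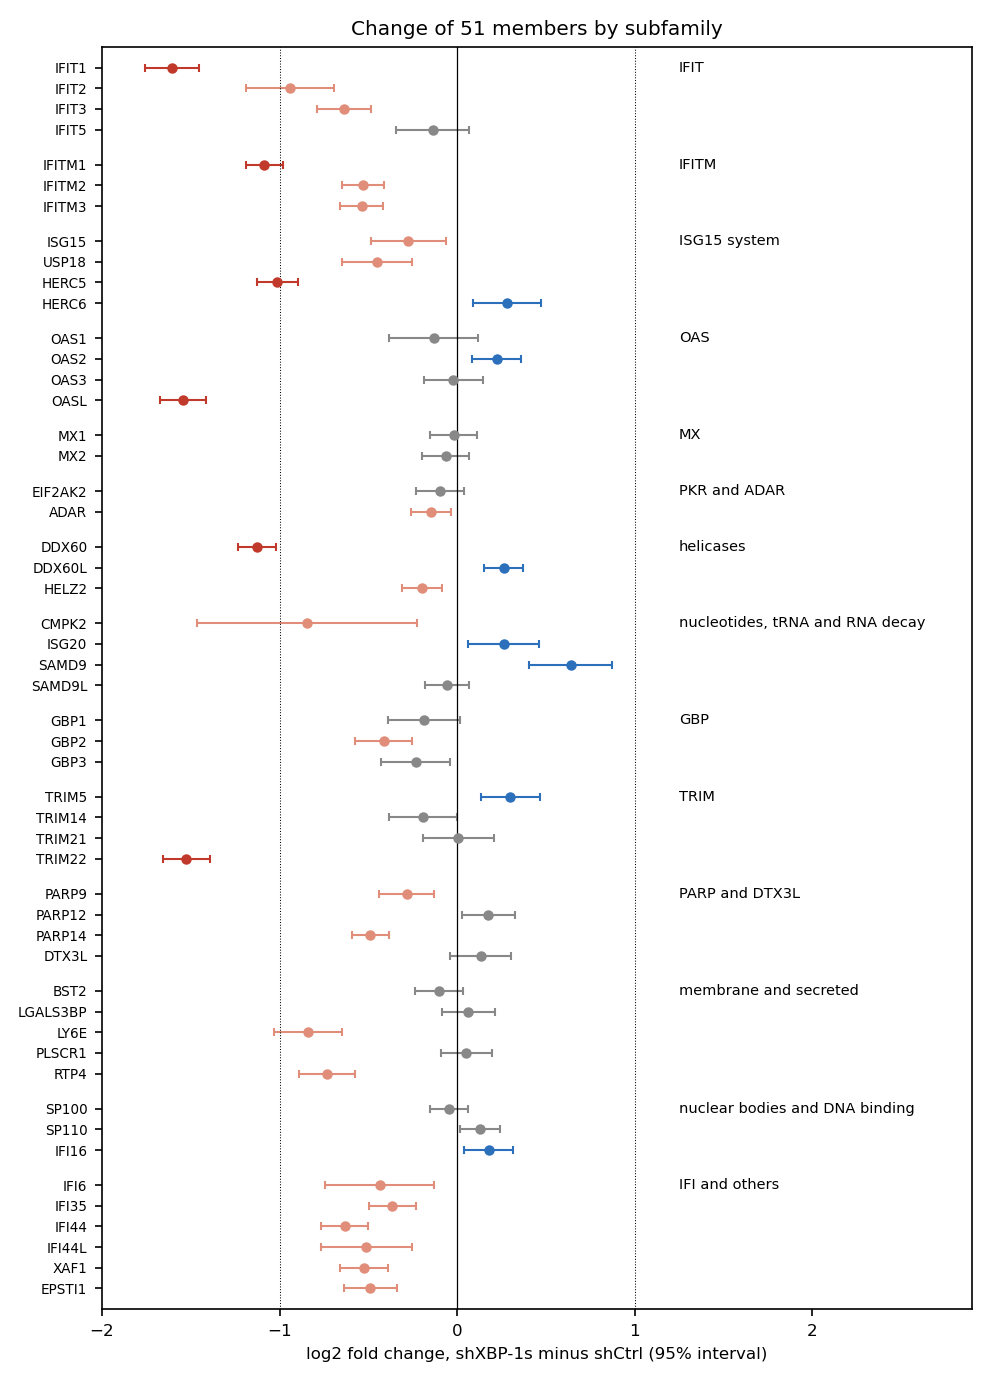
Log2 fold change (shXBP-1s minus shCtrl) of the 51 tested members by their brightest probe, grouped by subfamily, with 95% intervals from limma. Dark red marks the 6 genes called lower, light red those lower and blue those higher at an adjusted p below 0.05 with less than 2-fold change, and grey those that did not pass. Dotted lines mark 2-fold, and only IFIT1, OASL, TRIM22, DDX60, IFITM1 and HERC5 lie beyond one.

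The IFIT proteins, which bind the ends of foreign RNA and block its translation, held the member with the largest fall. IFIT1 read 0.96, 1.22 and 1.1 on the shCtrl arrays and -0.48, -0.53 and -0.52 on the shXBP-1s arrays. The groups were far apart, with less spread in shXBP-1s than in shCtrl. IFIT1 fell by 1.61 on the log2 scale (SE 0.067, limma adjusted p = 2.63e-06), or 3.04-fold. IFIT2, which also promotes apoptosis, fell on both of its probes, by 0.94 on the brighter (2.05, 2.23 and 1.84 in shCtrl, 0.97, 1.07 and 1.26 in shXBP-1s) and by 1.1 on the dimmer. The dimmer probe was past 2-fold and the brighter was not. IFIT3, the partner that stabilises IFIT1, fell by 0.64 (SE 0.066). IFIT5, the member that binds RNA on its own, did not pass, with a log2 fold change of -0.14 and an interval from -0.34 to 0.07. All 4 were below 0 in each scaling tried.

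The IFITM proteins sit in cell and endosomal membranes and hinder the fusion of enveloped viruses, and all 3 measured members fell. IFITM1, the member mainly at the cell surface, read 5.11, 5.15 and 5.14 in shCtrl and 4.04, 4.04 and 4.08 in shXBP-1s. Its replicates hardly differed from each other, and the gap between the groups was 2.12-fold (log2 fold change -1.08, SE 0.045). Its second probe fell by 0.79 with a wider interval, from -1.13 to -0.45. The endosomal IFITM2 and IFITM3 fell by 0.53 and 0.54, each with every shXBP-1s array below every shCtrl array. The 3 genes are closely related in sequence, and a probe may pick up signal from a neighbour.

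In the ISG15 system, the ubiquitin-like modifier and its enzymes did not move by equal amounts. ISG15, the modifier, read 3.40, 3.70 and 3.58 in shCtrl and 3.17, 3.27 and 3.41 in shXBP-1s. The highest shXBP-1s array overlapped the lowest shCtrl array, and the log2 fold change was -0.28 (limma adjusted p = 0.0422). Within the slide that shCtrl replicate 1 shares with the shXBP-1s samples it was -0.11 and did not pass (limma adjusted p = 0.473). This fit compares with 1 control array, whose spread is taken to be that of the other arrays. HERC5, the main ligase that attaches ISG15 to new proteins, read 0.42, 0.48 and 0.45 against -0.50, -0.57 and -0.63. It fell 2.02-fold (log2 fold change -1.01, SE 0.051), which is so close to the 2-fold line that it dropped below it in 7 of 17 alternatives, down to -0.86. USP18, the protease that removes ISG15 and restrains the receptor, fell by 0.45. HERC6, a relative of HERC5, was higher on both probes (0.28 and 0.33), except under normexp, where the brighter probe gave -0.42 and did not pass. Within the slide of shCtrl replicate 1 the brighter probe gave 0.16 and did not pass either (limma adjusted p = 0.263), and it passed in 11 of 18 alternatives.

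The OAS family makes the second messenger that switches on RNase L when double-stranded RNA is present, and of its 4 members OASL fell. OASL, which lacks that catalytic activity and binds the RNA sensor RIG-I, read -0.47, -0.51 and -0.55 in shCtrl and -1.99, -2.06 and -2.11 in shXBP-1s. With groups this far apart, OASL fell 2.92-fold (log2 fold change -1.54, SE 0.055, limma adjusted p = 1.67e-06). Of the active enzymes, OAS1 gave -0.13 (interval -0.38 to 0.12) and OAS3 -0.02 (interval -0.19 to 0.14), and neither passed. The brightest OAS2 probe rose by 0.22, while its other probes, far dimmer, did not pass. The rise of the brightest probe was under 2-fold and passed the test in 12 of 18 alternatives. With the slide as a block it gave 0.24 and did not pass.

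The classical antiviral enzymes outside these families moved little. The dynamin-like GTPase MX1 read 2.24, 2.10 and 2.10 in shCtrl and 2.07, 2.11 and 2.20 in shXBP-1s. Those arrays interleave, with a log2 fold change of -0.02 and an interval from -0.15 to 0.11, and the sign turned under quantile normalization (0.05) and normexp (0.06). MX2, which restricts retroviruses and herpesviruses, read -1.41, -1.48 and -1.44 against -1.54, -1.56 and -1.42 and gave -0.06 (interval -0.20 to 0.07). EIF2AK2 (PKR), the kinase that halts translation, gave -0.10 on its brighter probe (interval -0.23 to 0.04) and -0.08 on the other. ADAR, which edits double-stranded RNA, read 3.28, 3.15 and 3.23 against 3.07, 3.08 and 3.07. It fell by 0.15 with no overlap, and passed the test in 6 of 18 alternatives.

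**Figure D2:**
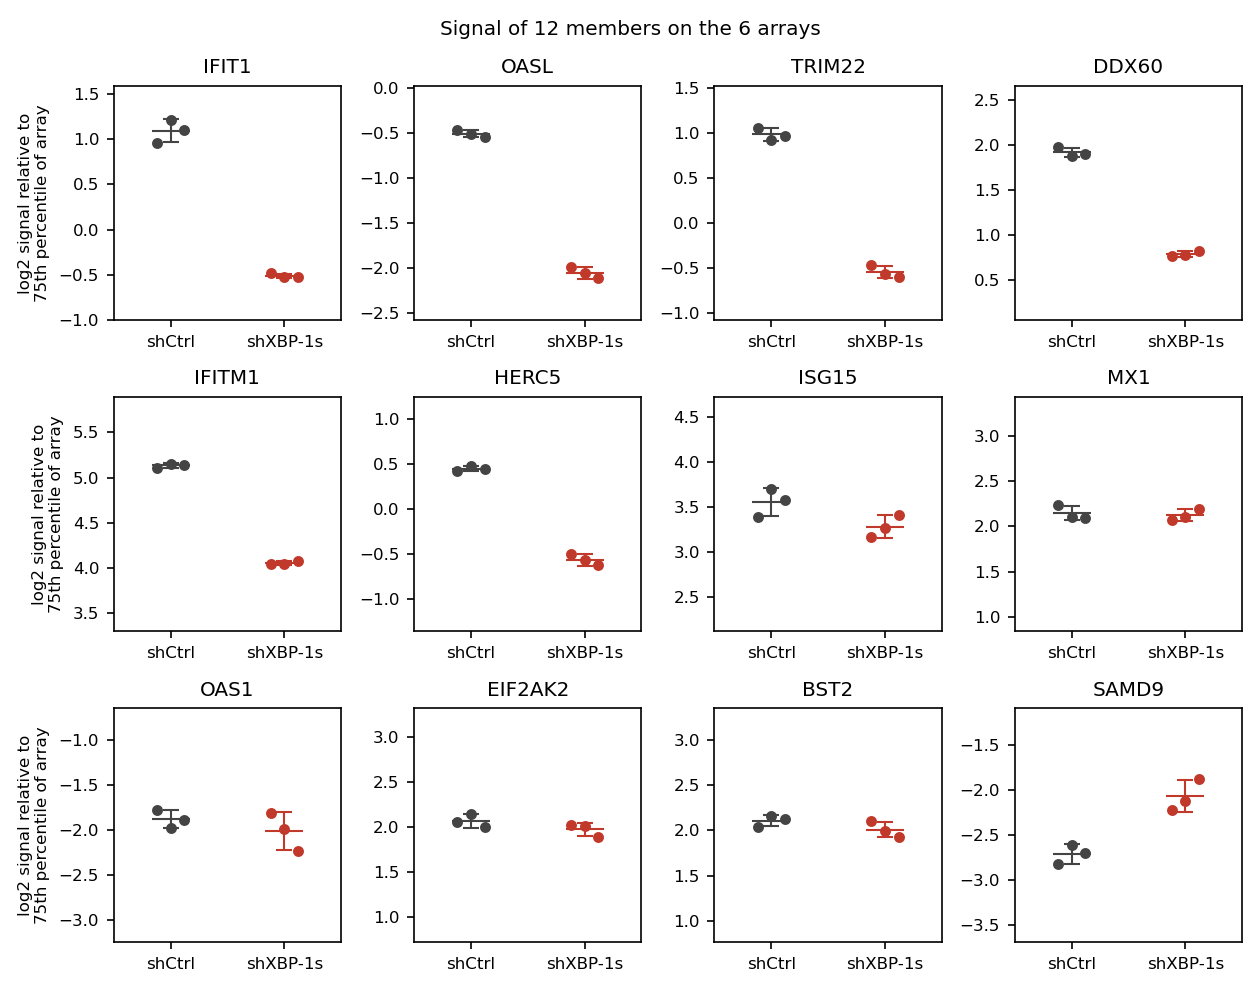
Signal of 12 members on each array (log2 relative to the 75th percentile of the array), shCtrl in grey and shXBP-1s in red, with the mean and SD of the 3 arrays. Each panel spans the same height in log2 units. The 6 called genes fall with no overlap, ISG15, MX1, OAS1, EIF2AK2 and BST2 overlap, and SAMD9 rises.

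Among the helicases, DDX60 fell while its relative DDX60L rose. DDX60, which promotes RIG-I signalling, read 1.97, 1.87 and 1.90 in shCtrl and 0.76, 0.78 and 0.83 in shXBP-1s. This 2.18-fold fall (log2 fold change -1.13, SE 0.046) stood in all 17 alternatives. DDX60L read 0.10, 0.01 and 0.09 against 0.32, 0.30 and 0.37, again with no overlap but in the other direction (0.26, SE 0.047). It did not pass under normexp, where it gave 0.22 (adjusted p = 0.119). HELZ2, a helicase and nuclear receptor coactivator, fell by 0.20, but did not pass with the slide as a block (-0.15, limma adjusted p = 0.137) or under normexp (-0.11).

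Of the 4 TRIM proteins, TRIM22 fell by the largest amount. TRIM22, which restricts retroviruses and influenza virus, read 1.06, 0.92 and 0.96 in shCtrl and -0.47, -0.57 and -0.60 in shXBP-1s. It fell 2.88-fold with no overlap (log2 fold change -1.53, SE 0.057, limma adjusted p = 1.91e-06). TRIM5, the retroviral capsid sensor, rose by 0.30 (SE 0.071) but gave -0.28 under normexp and did not pass with the slide as a block (0.23, limma adjusted p = 0.104). TRIM21, the cytosolic antibody receptor, gave 0.01 (interval -0.19 to 0.21). TRIM14, an adaptor of MAVS signalling, did not pass on its brightest probe (-0.19), passed on the next (-0.30), and did not pass on the dimmest 2 (-0.02 and -0.08).

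The genes of nucleotide, tRNA and RNA turnover held the largest rise. SAMD9, an antiviral factor that cleaves tRNA, read -2.83, -2.61 and -2.70 in shCtrl and -2.22, -2.12 and -1.88 in shXBP-1s. The groups did not overlap, and SAMD9 rose 1.56-fold (log2 fold change 0.64, SE 0.101), although normexp left 0.01. Its relative SAMD9L gave -0.06 and 0.09 on its probes, and neither passed. ISG20, an exonuclease for single-stranded RNA, rose by 0.26, passed in 8 of 18 alternatives, and did not pass with the slide as a block (0.24, limma adjusted p = 0.207). Without shXBP-1s replicate 3 it gave 0.16. CMPK2, a mitochondrial nucleotide kinase, was the most scattered member, with -4.11, -3.68 and -3.57 against -4.0, -5.01 and -4.88. Its groups overlapped, its interval ran from -1.46 to -0.22 around -0.84, and it passed the test in 8 of 18 alternatives.

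The guanylate-binding proteins, GTPases that attack the membranes of intracellular pathogens, were all below 0, except that 1 of the 3 was above 0 under normexp. GBP2 read 1.68, 1.49 and 1.60 in shCtrl and 1.28, 1.16 and 1.09 in shXBP-1s, and fell by 0.41 (SE 0.070). GBP1 (-0.19, interval -0.39 to 0.02) and GBP3 (-0.23, interval -0.43 to -0.04) did not pass after adjustment, although their groups did not overlap. GBP1 rested on shCtrl replicate 1, with -0.08 without that array and -0.40 with the slide as a block, where it passed (limma adjusted p = 0.00217). GBP3 passed without shCtrl replicate 1 (-0.28) and without shXBP-1s replicate 3 (-0.29).

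The mono-ADP-ribosyltransferases and their ubiquitin ligase partner were split. PARP14, a cofactor of STAT6, read 1.90, 1.95 and 1.99 in shCtrl and 1.5, 1.44 and 1.44 in shXBP-1s. It fell by 0.49 (SE 0.045) with tight replicates and no overlap. PARP9, which works as a pair with DTX3L, fell by 0.28 (SE 0.067). DTX3L itself gave 0.13 (interval -0.04 to 0.31) and PARP12, a zinc-finger enzyme of stress granules, gave 0.18 (interval 0.03 to 0.32), and neither passed.

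Of the membrane and secreted proteins, LY6E and RTP4 fell and the others did not pass. LY6E, a surface protein that limits coronavirus fusion, read -1.51, -1.48 and -1.49 in shCtrl and -2.18, -2.32 and -2.50 in shXBP-1s. The gap was 1.79-fold (log2 fold change -0.84, SE 0.082). RTP4, a chaperone that acts against flaviviruses, fell by 0.73 (SE 0.068). BST2 (tetherin), which holds budding virions at the surface, gave -0.10 (interval -0.24 to 0.03). LGALS3BP, a secreted glycoprotein, gave 0.06, and PLSCR1, a scramblase that restricts viral entry, gave 0.05.

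Among the nuclear body and DNA-binding members, SP100 depended on the probe. SP100, a scaffold of PML bodies, gave -0.05 on its brightest probe (interval -0.15 to 0.06) but rose by 0.37 and 0.33 on the dimmer probes, each with no overlap of the groups. Which SP100 isoforms these probes detect was not tested. SP110 gave 0.13 and did not pass (adjusted p = 0.0615). IFI16, a sensor of nuclear DNA, read 3.73, 3.59 and 3.55 in shCtrl and 3.75, 3.82 and 3.83 in shXBP-1s. That is a rise of 0.18 (SE 0.060, limma adjusted p = 0.0454), which passed the test in 9 of 18 alternatives.

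The remaining IFI genes with XAF1 and EPSTI1 all fell. The groups did not overlap, although in IFI6 an array of each group read -1.23. IFI44, a cytoskeleton-associated antiviral protein, read 0.97, 0.88 and 0.92 in shCtrl and 0.23, 0.25 and 0.39 in shXBP-1s. It fell by 0.63 (SE 0.057). XAF1, a pro-apoptotic antagonist of XIAP, fell by 0.52 and 0.49 on its probes. The others were IFI44L (-0.51), the epithelial-stromal interaction gene EPSTI1 (-0.49), the mitochondrial survival protein IFI6 (-0.44) and IFI35 (-0.36), which binds NMI. IFI6 did not pass with the slide as a block, again against 1 control array, with -0.16 (limma adjusted p = 0.404), and it passed in 8 of 18 alternatives. The 6 kept their sign under each scaling, with 6 past the test under quantile normalization and 2 under normexp. In those settings, 25.7% and 11.5% of all tested genes were lower at an adjusted p below 0.05.

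Several members lie next to each other in the genome, which let their changes be compared within the same arrays. In the gene order of GRCh38.p14, 14 pairs of tested members were neighbours among protein-coding genes, on 8 chromosomes. For each array, the signal of 1 gene was subtracted from that of its neighbour, and the difference was compared between the groups. In 8 of the 14 pairs (57.1%) these differences did not overlap between shXBP-1s and shCtrl, a share close to the 57.9% of 12910 neighbouring pairs among all tested genes. Each of the 8 gave p = 0.1 by the exact 2-sided permutation test, the smallest that 3 arrays against 3 allow, and 0.175 adjusted over the 14 pairs, so no pair could pass.

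IFIT1 and IFIT5 differed by 1.47 in log2 fold change (SE 0.125) and DDX60 and DDX60L by 1.39 (SE 0.021). The log2 fold change of HERC5 lay below that of HERC6, with a difference of -1.29 (SE 0.080). Both this pair and the DDX60 pair had members past the test in opposite directions, although HERC6 did not pass with the slide as a block. In log2 fold change, SAMD9L lay below SAMD9, with a difference of -0.70 (SE 0.092). IFITM1 differed from IFITM2 by -0.56 (SE 0.053), and IFITM3 from IFITM1 by 0.55 (SE 0.057). PARP9 and DTX3L, which share the window printed above, differed by 0.42 (SE 0.035). Across all settings the DDX60 difference ran from 1.24 to 1.42 and the IFIT1 difference from 1.31 to 1.55, whereas normexp reduced the HERC difference to -0.47 and turned that of SAMD9 (0.02).

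In log2 fold change, OAS2 lay above OAS3 by 0.24 (SE 0.100), a difference that ran from -0.0042 to 0.67 over the settings. The other 6 pairs overlapped. They were IFIT2 with IFIT3 (difference 0.30, SE 0.205), IFI44L with IFI44 (-0.12, SE 0.178), GBP3 with GBP1 (0.04), GBP1 with GBP2 (-0.23), OAS1 with OAS3 (0.11) and MX2 with MX1 (0.04).

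**Figure D3:**
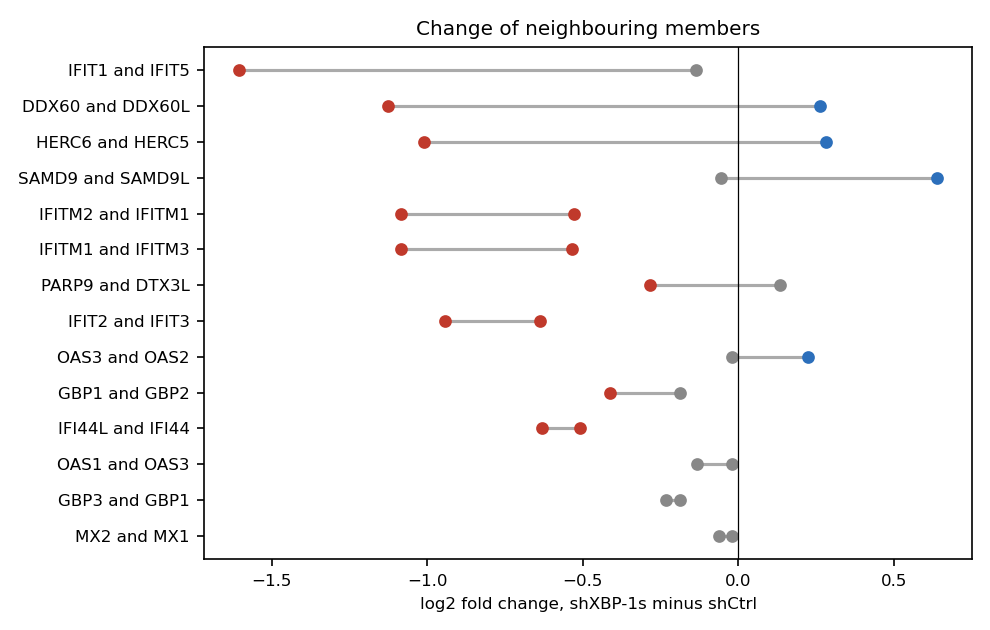
Log2 fold change (shXBP-1s minus shCtrl) of the 14 pairs of neighbouring members, 1 pair per row, ordered by the size of their difference. Red points are lower and blue points higher at an adjusted p below 0.05, grey points did not pass. The DDX60 and HERC pairs join a red to a blue point across 0, and under normexp HERC6 was below 0.

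For 11 members with more than 1 tested probe, the probes gave a check within the gene. In 7 of them all probes had the same sign, and in 4 (OAS2, OAS3, SAMD9L and SP100) the signs differed, with 0 genes having probes past the test in both directions. The other 40 members rest on 1 probe each, among them IFIT1, OASL, TRIM22, DDX60 and HERC5.

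**Figure D4:**
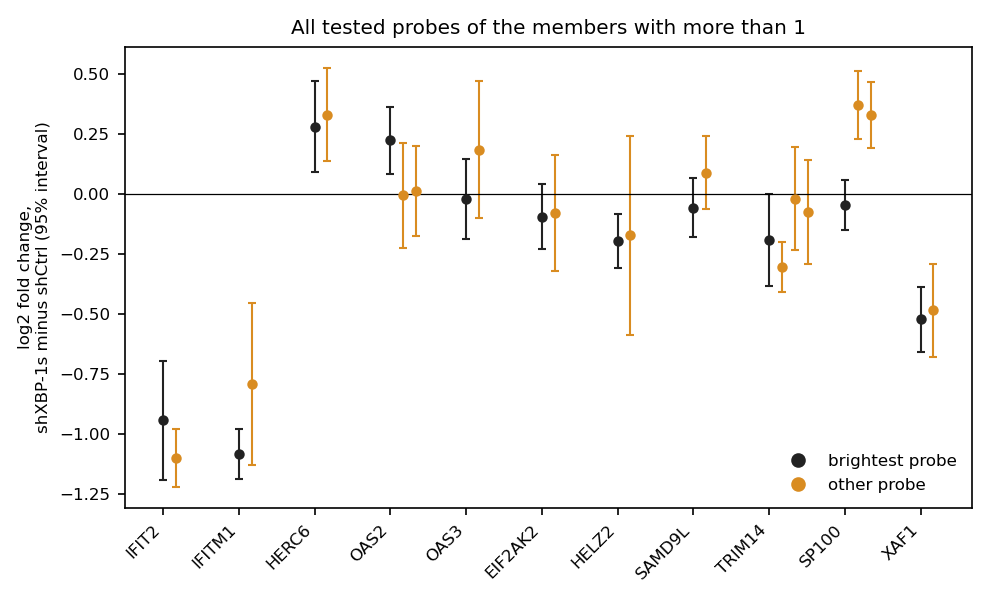
Log2 fold change with 95% interval of every tested probe of the 11 members with more than 1, the brightest probe in black and the others in orange. IFIT2, IFITM1, HERC6 and XAF1 pass on both of their probes, and SP100 passes on the dimmer probes alone.

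The pathway that induces these genes was measured on the same arrays. Of 9 kinases and transcription factors, 4 were lower and 2 higher at an adjusted p below 0.05, and 0 were called at 2-fold. Over all tested genes, 27.5% were lower and 18.9% higher at that threshold, and the lists below stand beside the same shares. STAT2 fell by 0.25 (SE 0.051), while IRF9, the DNA-binding partner, gave -0.06 (interval -0.20 to 0.09). IRF1 fell by 0.71, IRF3 by 0.52 on its brighter probe and IRF7 by 0.36, whereas JAK2 rose by 0.34 and IRF2, a repressor of IRF1 targets, by 0.40. Of 6 receptor genes, the type I receptor chain IFNAR1 fell by 0.64 and the type II chain IFNGR2 rose by 0.27.

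Of 10 interferon genes on the list, 4 could be tested, and IFNE (0.73) and IFNL2 (0.27) were higher at low signal. Of 4 inhibitors, SOCS3 fell by 0.74. Of 10 RNA and DNA sensor genes, 5 were lower by their brightest probe, against 27.5% of all tested genes. RIGI (RIG-I) was called lower on its brighter probe (-1.20, SE 0.087) and gave -0.09 on the other, and DHX58 (LGP2) fell by 0.73, TBK1 by 0.55 and IKBKE by 0.88. The MAVS probes passed in opposite directions (0.31 and -0.71), so no direction is given for MAVS. Of 15 interferon-inducible antigen presentation genes, 6 were lower and 0 were called lower by their brightest probe, against 27.5% and 2.88% of all tested genes. The lower genes were led by the immunoproteasome subunit PSMB10 (-0.80) and the peptide transporter TAP2 (-0.68), with PSMB9 (-0.42), PSMB8 (-0.40) and the trimming peptidase ERAP1 (-0.35). A dimmer ERAP1 probe was called lower (-1.20, SE 0.074).

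**Figure D5:**
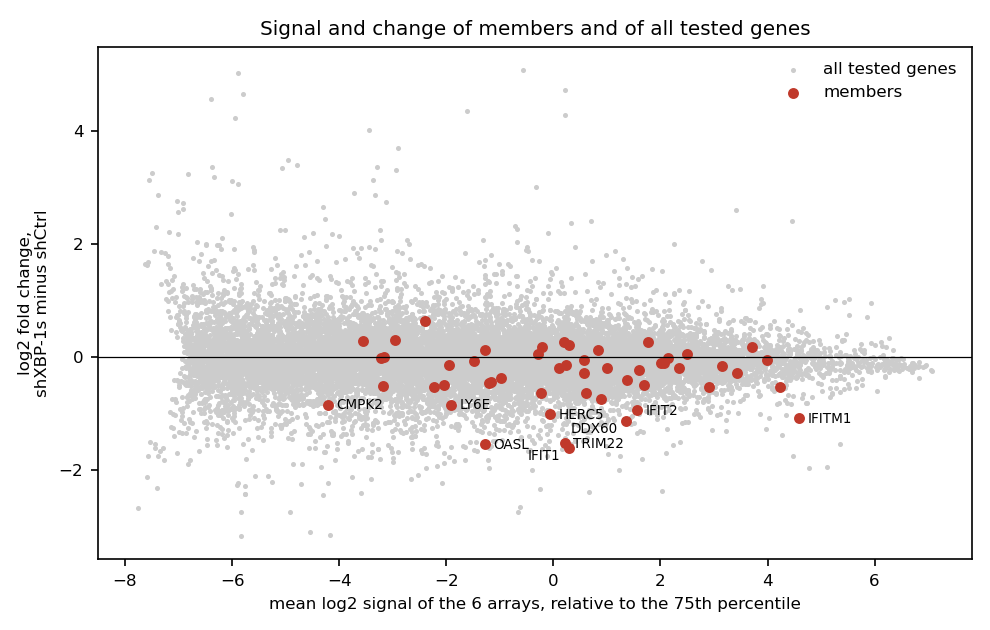
Mean log2 signal of the 6 arrays (horizontal, relative to the 75th percentile) against log2 fold change (vertical, shXBP-1s minus shCtrl) for all 16821 tested genes in grey and the 51 members in red. Members with the larger changes are named, and all of those lie below 0, from the dim CMPK2 to the bright IFITM1.

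Other features of the arrays moved with the groups, and their part in these results was not tested. Of 9 squamous epithelial markers, 7 were higher and 5 were called higher, against 18.9% and 2.3% of all tested genes. Their summed signal relative to the 75th percentile was 102.4 to 109.1 on the shCtrl arrays and 140.2 to 165.2 on the shXBP-1s arrays. Of 8 tested leukocyte markers, 3 were lower and 1 higher, against 27.5% and 18.9% of all tested genes. Their sums were 4.66 to 6.53 against 3.44 to 3.68, mostly CD14, and CD3E gave -4.18 and -4.22 in the groups. Of the 7 fibroblast and endothelial markers, 1 was lower and 2 were higher, against 27.5% and 18.9% of all tested genes. The lower gene was COL1A1 (-0.63). DCN (1.43) and PDGFRA (1.03), both at low signal, were called higher, against 2.3% of all tested genes. The 7 markers summed to 0.434 to 0.504 on the shCtrl arrays against 0.465 to 0.491 on the shXBP-1s arrays. In bulk samples, fewer cells with a transcript and less of it per cell cannot be told apart. The 75th percentile of the raw signal was 687.4 to 761.3 in shCtrl and 792.0 to 983.4 in shXBP-1s.

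The scan times and array positions in the file headers place the arrays on 2 slides, slide 1 holding shCtrl replicates 2 and 3 and slide 2 holding shCtrl replicate 1 beside the shXBP-1s samples. Within slide 2, where shCtrl replicate 1 is the only control, the log2 fold change was -1.47 for IFIT1, -1.59 for OASL, -1.60 for TRIM22, -1.18 for DDX60, -1.06 for IFITM1 and -0.98 for HERC5. Over the members, 23 were lower and 2 higher within slide 2, where 20.9% and 14.7% of all tested genes were, against 26 and 7 over all arrays. The median was -0.21.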

How the data were processed

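For each of the 6 arrays the authors deposited scanner output of Feature Extraction 11.0.1.1, in which a spot's intensity is background-subtracted and not normalized between arrays. The deposited table of log2 values, for which the submitters' notes name RMA, served as an alternative. The log2 intensity minus the 75th percentile of its array was used, without flagged spots and with the mean over the spots of a probe. Tested were 27624 probes whose spots exceeded background on each of the 3 arrays of a group. The test was limma 3.58.1 in R 4.3.3 (lmFit, eBayes with trend, 2-sided), with Benjamini-Hochberg adjustment over these probes. In simulated data it recovered 192 of 200 changed probes, all set to change by more than the 2-fold minimum. Recovery of smaller changes was not simulated. Symbols came from RefSeq transcripts of GRCh38.p14 (25771 of 34127 probes matched), and the array annotation names hg19. The labels describe a NimbleGen labelling procedure, the files an Agilent array. The members and lists were chosen from general knowledge with earlier results of these data known. All members are accounted for, with full values for members with a called probe and for the largest change of each subfamily. Pathway genes are named where called, up to 5 per list by p, and STAT2, IRF9 and XBP1 always, and 1 pathway gene is not reported here. Normexp, with an offset of 50, used the median spot signal, as a mean signal was not used here. Other alternatives were quantile normalization, limma without trend, filters on dim probes, the methods' t-test, the replicate number or slide as a block, each array left out, and the mean over or any of a gene's probes. The number of arrays limits the precision.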

Additional observations from a re-analysis of the deposited data

How the results depend on the processing

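The count of members called lower (6) ran from 4 under normexp to 7, and 0 were called higher in each setting tried. Of all tested genes, 2.88% were called lower and 2.3% higher in the main setting. The share called lower was 1.33% under normexp and 0.82% when quantile normalization followed it. With 1 array left out, that share was 2.74% to 3.17%. IFIT1, OASL, TRIM22 and DDX60 were called in all 17 alternatives, IFITM1 in all but normexp (-0.93), the dimmer IFIT2 probe in all but normexp without and with quantile normalization (-0.93 and -0.77), and HERC5 in 10 of 17. No called probe changed sign. Normexp gave 17 members lower and 2 higher at an adjusted p below 0.05, against 11.5% and 9.27% of all tested genes. The medians were -0.30 for the members and -0.29 for all tested genes, and the cause was not tested. The 7 members higher, against 18.9% of all tested genes, became 4 under the methods' t-test with adjustment, against 14.6%, and the cause was not tested. Leaving out 1 array gave 3 to 8 members higher, against 13.6% to 21.1% of all tested genes. The count was 4 without shCtrl replicate 2 (16.2% of all tested genes), 4 without shCtrl replicate 3 (15.5%) and 3 without shXBP-1s replicate 2 (13.6%). Among members past the test, HERC6 and TRIM5 changed sign, both under normexp. With the replicate number as a block, 6 members were called lower, 27 were lower and 7 higher, against 2.9%, 26.3% and 18.7% of all tested genes. The deviations of same-numbered arrays correlated at -0.016, 0.117 and -0.116, so the numbers were not read as pairs. Changes near 2-fold, dim probes and the single control array on slide 2 limit these results.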
